A study of Mus musculus with 3 samples.

Results

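Enzymes that place acetyl and methyl groups on histones, or take them off, were examined as a set of 50 genes in chromatin-associated RNA of mouse macrophages. The genes were chosen by name and not by a rule on their measured values, although earlier results of these data were known. They were grouped as 12 acetylases, 14 deacetylases and corepressors, 13 methylases and 11 demethylases. All 50 were found among the 55536 genes of the gene tables, of which 22028 are protein-coding, and they lie on 18 chromosomes. The cells were primary bone marrow-derived macrophages of strain C57BL/6J. They had received Lipid A at 100 ng/ml for 12 h, stayed 12 h without it after a washout, and then received Lipid A at 100 ng/ml again for 20 min. Lipid A is the part of bacterial lipopolysaccharide that the receptor TLR4 recognises. The study is a single group of 3 libraries, called biological replicates 1, 2 and 3, made from total RNA of the chromatin fraction after removal of ribosomal RNA. Cells without either exposure were not analysed here, so the values below are levels after the second exposure and not effects of Lipid A.

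Acetylation of histone tails by acetylases such as p300 and CBP marks active enhancers and promoters, and deacetylases reverse it, often within corepressor complexes built on NCoR, SIN3, NuRD or CoREST. Methylation depends on the residue. Methylation of lysine 4 and lysine 36 of histone H3 accompanies transcription, whereas methylation of lysine 9 and lysine 27 is typical of silent chromatin. In macrophages these enzymes are known for setting which inflammatory genes can be induced, and the response to a second exposure to lipopolysaccharide differs from the first in part through such marks.

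Replicates 1, 2 and 3 were made from 1000, 250 and 500 ng of RNA and yielded 13953780, 24222661 and 16571228 expected counts. Starting amount, depth and replicate cannot be told apart. The labels give the same donor entry for all 3 libraries, so the spread between them may be technical in part, and in bulk RNA fewer cells with a transcript and less transcript per cell cannot be told apart. All 8 macrophage markers passed 1 TPM (a level scaled for transcript length and library size) in every library, with means from 33.9 to 334 TPM. None of the 8 neutrophil, 5 T cell, 4 B cell, 5 erythroid and 5 stromal or endothelial markers did, and their highest mean in the gene table was 1.62 TPM, for Pecam1. Ly6g, Cxcr2, S100a8, S100a9, Hbb-bs and Hbb-bt were listed at 0 in every library of the gene table. In the second transcript table, which was made by another route, 2 neutrophil, 2 T cell and 2 stromal or endothelial markers reached 1 TPM in every library. These were Cxcr2 at 4.42 ± 1.61 TPM, Mpo at 2.11 ± 0.503 TPM, Cd3d at 14.01 ± 1.44 TPM, Cd8a at 2.47 ± 0.384 TPM, Pecam1 at 9.498 ± 1.995 TPM and Col1a1 at 1.62 ± 0.127 TPM, and their part in the results was not tested. Of 6 Lipid A response genes, Cxcl10, Nfkbia, Tnf, Cxcl2 and Il1b peaked in replicate 1 and had their lowest value in replicate 2, while Fos was highest in replicate 3, with 31.7, 63.99 and 108 TPM in replicates 1, 2 and 3.

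Nearly the whole set was present on chromatin. Of the 50 members, 49 stood at 1 TPM or more in every library, a level that 45.2% of all protein-coding genes reached, and 40 stood at 10 TPM or more in every library, against 21.8% of protein-coding genes. All 12 acetylases, 7 of 14 deacetylases and corepressors, 12 of 13 methylases and 9 of 11 demethylases reached 10 TPM throughout. The median of the members' mean levels was 29.3 TPM, against 0.677 TPM for all protein-coding genes and 10.9 TPM for the protein-coding genes that averaged 1 TPM or more. By class the median was 28.4 TPM for acetylases, 12.4 TPM for deacetylases and corepressors, 49.6 TPM for methylases and 29.5 TPM for demethylases. On the log2(TPM + 1) scale the members' median lay 4.25, 4.08 and 4.17 above that of all protein-coding genes in replicates 1, 2 and 3. The distance for the methylases was 5.09, 4.81 and 4.86, and for the deacetylases 3.13, 2.97 and 3.11. The methylase median was above the deacetylase median in each library. These medians describe short lists and were not tested.

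**Figure D1:**
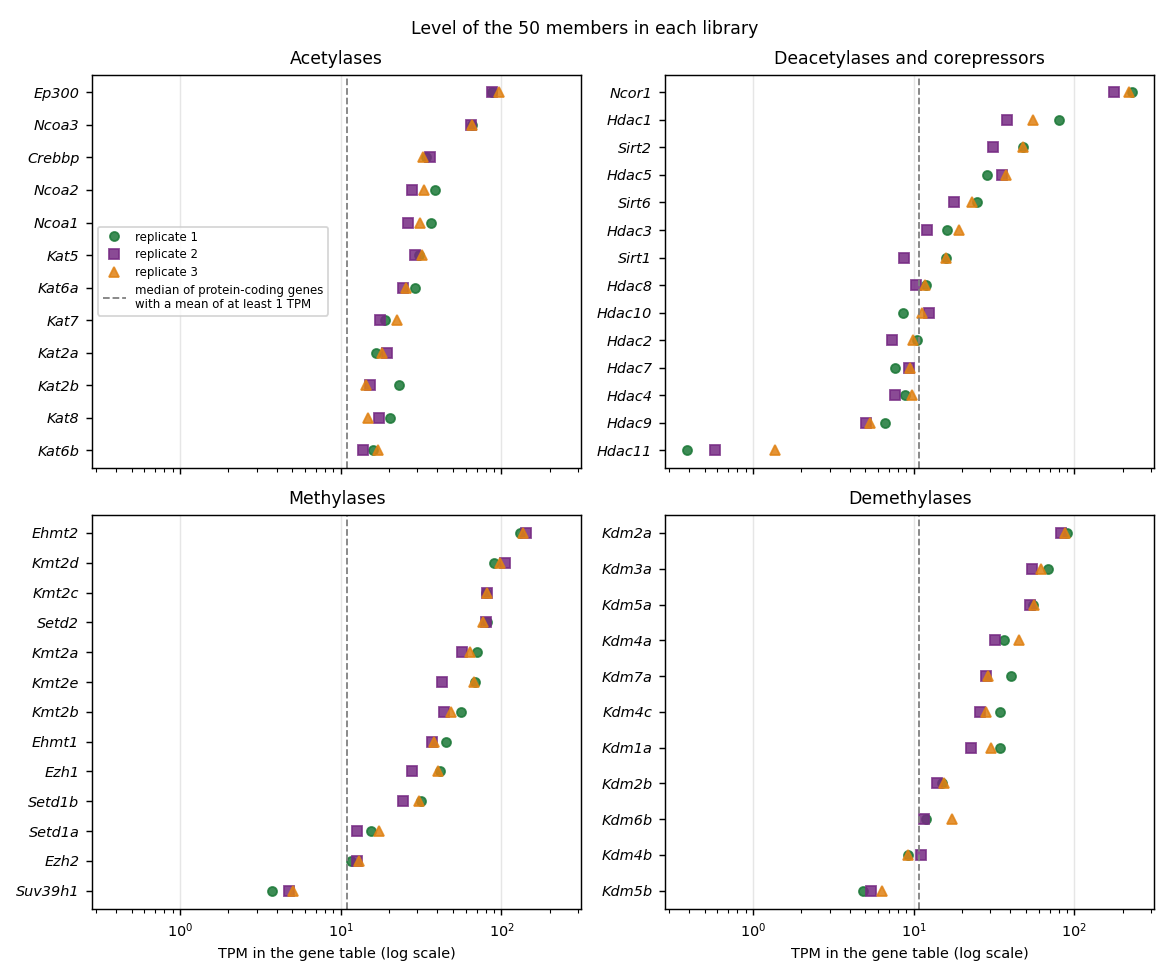
Level of each member in TPM on a log scale, one symbol per library, with the 4 classes in panels and members sorted by mean. The dashed line marks the median of protein-coding genes averaging 1 TPM or more, 10.9 TPM, and only Hdac11 falls below 1 TPM.

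Much of this RNA was assigned to annotated transcripts that keep an intron, a class that GENCODE, the source of the annotation, lists beside the coding transcripts of a gene. Of the 50 members, 38 have at least 1 such transcript, against 62.3% of protein-coding genes that averaged 1 TPM or more. Retained-intron transcripts held a median of 37.7% of a member's TPM and 26.5% of the TPM of those protein-coding genes in the first table. The acetylases lay below that background there, at 17.7%. Deacetylases and corepressors stood at 42.7%, methylases at 36.1% and demethylases at 44.2%. In the second table the acetylases stood at 37.4%, against 24.7% for protein-coding genes, so their side of the background turned with the table. Among genes that have such a transcript the medians were 44.3% for members and 46.9% for protein-coding genes in the first table, and 47.2% and 45.3% in the second, so the direction of this difference turned with the table. The members are long and finely divided genes. Their median span was 64.0 kb, against 23.7 kb, and the transcript with the most exons had a median of 21.5 exons, against 9.

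At 14 members, 50% or more of the TPM sat on retained-intron transcripts, where 28.2% of protein-coding genes did the same. The transcript with the highest TPM was of that class in every library for 11 members (background 20.1%) and coding in every library for 27 (background 53.6%). A single transcript led in every library for 32 of the 50 members (background 64.5%), and for 13 it led in both transcript tables as well (background 30.9%). Kdm1a, the lysine 4 demethylase LSD1, had 82.4, 75.3 and 75.6% of its TPM on retained-intron transcripts in replicates 1, 2 and 3, and the class IIa deacetylase Hdac7 had 75.2, 81.2 and 75.4%. Hdac1, a catalytic subunit of SIN3, NuRD and CoREST, had 76.3, 70.2 and 69.4%, Hdac5 72.9, 73.3 and 68.6% and the acetylase Kat6b 77.4, 69.4 and 68.5%. These shares are from the first table and lay above 60% in every library there, as did those of Kat8 and Hdac11. In the second table Kat6b had 55.6, 55.0 and 58.3%, Kdm1a 57.2% in replicate 2 and Hdac5 55.9% in replicate 3. Hdac1 and Hdac7 stayed above 60% in every library of that table. At the other end Kmt2d and Kmt2a have no annotated transcript of the class. They had 99.6% and 90.3% of their TPM on coding transcripts in the first table, and 89.9% and 73.4% in the second. Setd1a had all of its TPM on coding transcripts in the first table. Suv39h1 was the least even member, with 21.6, 56.5 and 53.1%, so that replicate 1 stood apart from the others at a mean level of only 4.53 TPM.

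**Figure D2:**
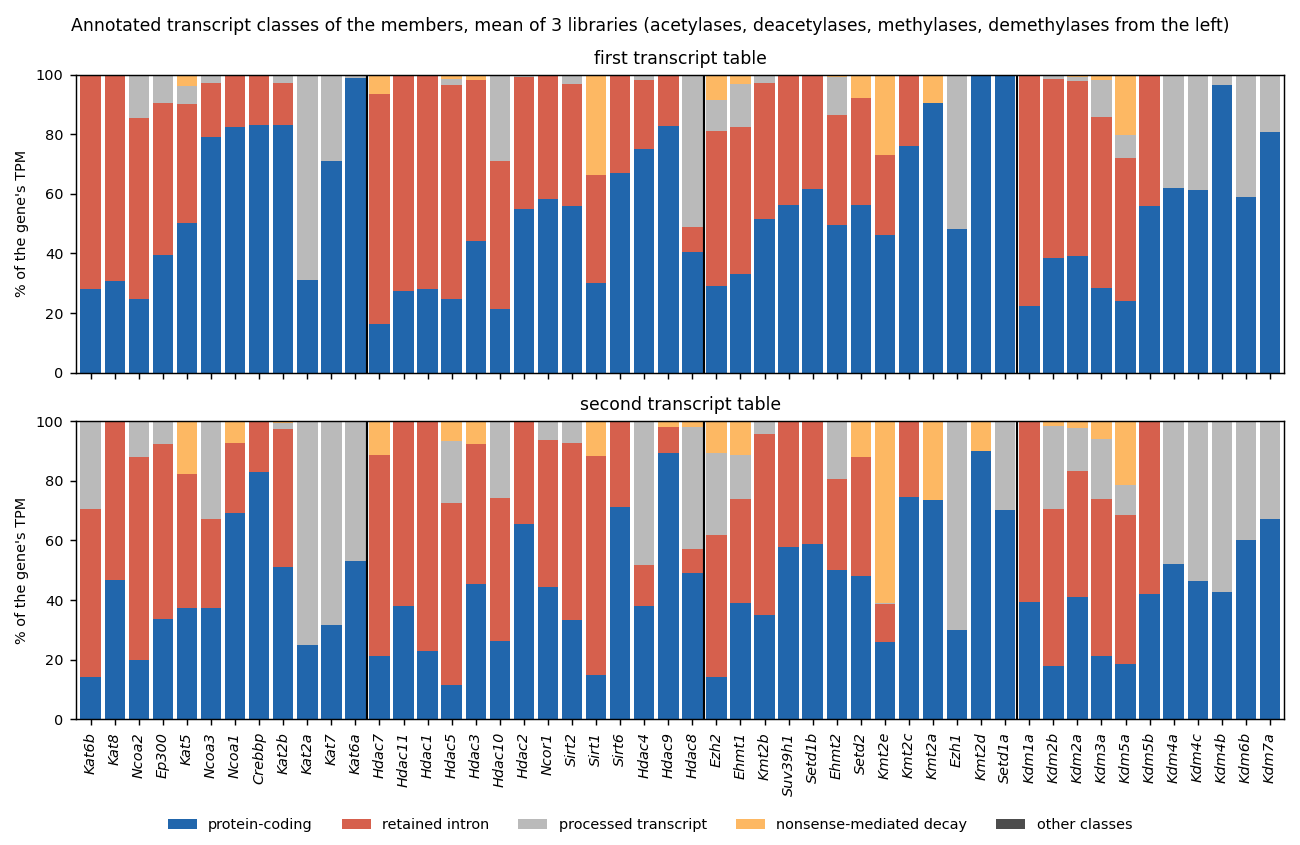
Share of each member's TPM on annotated transcript classes, as the mean of 3 libraries in percent, in the first transcript table (top) and the second (bottom), sorted by retained-intron share within class. Retained-intron transcripts hold 77.7% of the TPM of Kdm1a in the first table and 77.1% of that of Hdac1 in the second, and none for Kmt2d, Kmt2a or Setd1a.

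For 4 members the leading transcript was of the retained-intron class in every library and in both transcript tables, and the letters below show, for each of these transcripts, a splice site of the coding form that it reads across without a cut. A 5th such member, Hdac11, had under 1.5 TPM. The sequences below come from the GENCODE M21 transcripts on mm10 and are written 5′ to 3′ in the sense of the gene, with intron bases in capitals. Each unspliced stretch of 80 bases crosses 1 splice site and is followed by the joined exons of a coding transcript at the same site. The donor site of Kat6b begins with GT and the acceptor sites of the other genes end with AG at the border between capitals and lower case.
Ncor1 unspliced: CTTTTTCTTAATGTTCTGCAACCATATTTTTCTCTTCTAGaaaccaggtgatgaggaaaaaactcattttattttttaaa
Ncor1 spliced: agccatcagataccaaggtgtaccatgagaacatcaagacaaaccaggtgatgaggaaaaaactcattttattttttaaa
Kdm1a unspliced: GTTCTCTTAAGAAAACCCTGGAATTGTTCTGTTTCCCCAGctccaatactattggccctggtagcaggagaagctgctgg
Kdm1a spliced: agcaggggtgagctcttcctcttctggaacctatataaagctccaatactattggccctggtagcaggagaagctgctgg
Hdac7 unspliced: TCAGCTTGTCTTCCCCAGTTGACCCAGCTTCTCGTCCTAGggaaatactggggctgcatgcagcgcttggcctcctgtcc
Hdac7 spliced: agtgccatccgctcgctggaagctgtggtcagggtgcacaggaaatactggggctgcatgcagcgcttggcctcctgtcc
Kat6b unspliced: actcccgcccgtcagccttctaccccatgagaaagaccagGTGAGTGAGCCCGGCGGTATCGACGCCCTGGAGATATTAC
Kat6b spliced: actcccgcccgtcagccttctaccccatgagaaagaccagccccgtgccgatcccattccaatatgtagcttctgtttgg

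The Ncor1 stretch lies at chr11:62401228-62401307 on the minus strand, at the 3′ end of intron 7 of the coding transcript Ncor1-204. Its transcript Ncor1-207 is 566 bases long and had 43.8, 30.6 and 39.2 TPM in the first table and 40.6, 26.9 and 35.5 TPM in the second. The coding transcript Ncor1-204 had 20.7, 20.6 and 21.3 TPM in the first table. Ncor1-207 was therefore higher than Ncor1-204 in each library, and TPM counts a short transcript as much as a long one.

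The Kdm1a stretch, at chr4:136552549-136552628 on the minus strand, is the end of intron 17 of Kdm1a-202. Kdm1a-205, which holds it, had 8.07, 6.08 and 8.70 TPM in the first table, above the 4.72, 3.51 and 4.98 TPM of Kdm1a-202. In the second table Kdm1a-206, also of the retained-intron class, led in replicates 1 and 2. The Hdac7 stretch, at chr15:97794026-97794105 on the minus strand, is the end of intron 23 of Hdac7-204. The retained-intron transcript of Hdac7 had 4.49, 5.89 and 5.57 TPM, and Hdac7-204 0, 0.45 and 0.67 TPM. The Kat6b stretch, at chr14:21517459-21517538 on the plus strand, opens intron 2 of Kat6b-204, which is 92255 bases long. Kat6b-213 reads 2806 bases into it and had 5.03, 5.0 and 5.75 TPM. These transcripts cover only part of the intron, and an intron kept in finished RNA and one not yet removed cannot be told apart here.

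Among the acetylases Ep300 was the highest in the gene table. It encodes p300, one of the general coactivators that acetylate histone H3 at lysine 27, at chr15:81585351-81652077, plus strand. Ep300 had 87.3, 87.7 and 96.1 TPM in replicates 1, 2 and 3, and its mean was 90.4 ± 4.97 TPM (SD over 3 libraries, as in all values of this form below). Its partner in function Crebbp, which encodes CBP, had 33.9, 35.8 and 32.7 TPM. The groups of values do not overlap, and Ep300 stood 2.599-fold above Crebbp, from the mean log2 ratio of TPM + 1 as in all folds between paralogs below. The gap was smaller on coding transcripts alone, where Ep300 had 35.8 ± 4.23 TPM and Crebbp 28.3 ± 1.26 TPM, although the order held in every library.

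The p160 coactivators bind nuclear receptors and bring in p300. Ncoa3 had 66.0, 64.6 and 65.3 TPM, below Ep300 in each library of the gene table. The order of these genes turned in the other measures, with Ncoa3 at 121 ± 11.2 TPM and Ep300 at 108 ± 9.67 TPM in the second table, and Ncoa3 at 51.6 ± 1.65 TPM and Ep300 at 35.8 ± 4.23 TPM on coding transcripts. Ncoa2 averaged 33.2 ± 5.37 TPM and Ncoa1 31.1 ± 5.03 TPM, and their ranges overlap with that of Kat5 at 30.5 ± 1.65 TPM. Kat5 encodes TIP60, the catalytic subunit of NuA4. Crebbp, Ncoa2, Ncoa1 and Kat5 each overlap with the next in this order.

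The MYST acetylases other than Kat5 had lower means than Kat5 in the gene table. In the second table Kat7 at 45.3 ± 1.97 TPM and Kat6a at 42.5 ± 2.099 TPM were above Kat5 at 27.9 ± 2.68 TPM, so this order turned. Kat6a, which encodes MOZ, had 28.9, 24.4 and 25.6 TPM, and Kat6b, which encodes MORF, had 15.8, 13.8 and 17.1 TPM, the lowest mean of the acetylases in the gene table. Kat2a was the lowest acetylase in the second table. Kat6a was higher than Kat6b in each library. Kat7, the HBO1 enzyme that acetylates histone H3 at lysine 14, averaged 19.6 ± 2.44 TPM and Kat8, the MOF enzyme specific for lysine 16 of histone H4, 17.3 ± 2.72 TPM. Of the SAGA-type enzymes, Kat2a (GCN5) had 16.5, 19.5 and 17.99 TPM and Kat2b (PCAF) had 23.1, 15.2 and 14.4 TPM. Kat2b was above Kat2a in replicate 1 and below it in replicates 2 and 3. Kat2a had no retained-intron transcript, and 68.8% of its TPM sat on transcripts annotated as processed, which carry no reading frame. On coding transcripts it averaged 5.62 ± 1.41 TPM, below the 14.3 ± 2.16 TPM of Kat2b.

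The corepressor Ncor1, at chr11:62316426-62458541, minus strand, was the highest of all 50 members. NCoR holds Hdac3 in a complex that represses inflammatory genes in macrophages. Ncor1 had 229, 176 and 218 TPM, and replicate 2 was the lowest. On coding transcripts only it averaged 120.1 ± 10.2 TPM, and it led the members there too. Hdac3 itself averaged 15.8 ± 3.54 TPM, and its range of 16.2, 12.03 and 19.1 TPM lay far below Ncor1 in every library.

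Class I deacetylases differed widely among themselves. Hdac1 had 80.4, 38.2 and 55.1 TPM and its close paralog Hdac2 had 10.5, 7.37 and 9.89 TPM, so that Hdac1 was 5.55-fold higher, with no overlap. Counted on coding transcripts alone, Hdac1 averaged 15.8 ± 3.97 TPM and Hdac2 5.003 ± 0.449 TPM, which kept the order at a smaller distance. Hdac8 averaged 11.3 ± 0.859 TPM. Its range overlaps with that of Hdac2 and ends just below that of Hdac3.

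Class IIa deacetylases, which shuttle between nucleus and cytoplasm, were led by Hdac5 at 28.7, 35.5 and 37.7 TPM. Hdac7 had 7.61, 9.32 and 9.55 TPM, lower than Hdac5 in each library by 3.55-fold. Hdac4 had 8.80, 7.64 and 9.70 TPM and Hdac9 had 6.66, 5.02 and 5.36 TPM. Hdac4 was above Hdac9 in each library, by a fold of 1.46, while Hdac7 and Hdac4 had overlapping ranges. Hdac10, of class IIb and known as a polyamine deacetylase, had 8.56, 12.5 and 11.2 TPM. Hdac11, the class IV enzyme and a known fatty acid deacylase, had 0.39, 0.58 and 1.38 TPM and 5, 17 and 17.9 expected counts, so its order across libraries rests on few reads.

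The sirtuins use NAD as a cofactor. Sirt2, a mainly cytoplasmic deacetylase that also acts on lysine 16 of histone H4, had 48.2, 31.2 and 47.8 TPM. Sirt6, a deacetylase of lysine 9 of histone H3, averaged 21.9 ± 3.68 TPM. Sirt1 had 15.8, 8.65 and 15.97 TPM, with replicate 2 well below the others. Sirt2 was above Sirt1 in each library, by 3.04-fold. In the second table Sirt1 averaged 34.7 ± 8.997 TPM, and 73.3% of that sat on retained-intron transcripts.

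Methylases of lysine 9 and lysine 4 held the top of their class. Ehmt2, which encodes G9a, at chr17:34898469-34914052, plus strand, had 131, 141 and 135 TPM. Its dimer partner Ehmt1, which encodes GLP, had 44.9, 36.8 and 38.2 TPM, and Ehmt2 was 3.35-fold higher. In the second table the ratio was smaller, 2.04-fold, in the same direction. On coding transcripts only, Kmt2d at 97.5 ± 8.82 TPM was above Ehmt2 at 67.7 ± 12.5 TPM. Suv39h1, which trimethylates lysine 9 in heterochromatin, had 3.75, 4.78 and 5.07 TPM and was the lowest methylase.

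The lysine 4 methylases of the MLL family were all well represented. Kmt2d had 89.3, 106 and 98.5 TPM and Kmt2c had 79.7, 80.98 and 81.3 TPM. Both act at enhancers, and Kmt2d was the higher in each library, although by only 1.21-fold. Kmt2a had 70.9, 56.6 and 63.5 TPM and Kmt2b had 56.4, 44.1 and 48.2 TPM, a difference of 1.28-fold that was of the same sign throughout. The ranges of these promoter-associated enzymes nearly touch, at 56.6 TPM for Kmt2a and 56.4 TPM for Kmt2b. Kmt2e, a relative whose SET domain lacks known methylase activity, averaged 59.5 ± 14.8 TPM. The span of its gene overlaps Srpk2 on the opposite strand, and whether their exons overlap was not examined. Reads from any exon bases they share cannot be told apart because the strand used in counting is not stated.

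Setd1b and Setd1a, the catalytic subunits of the SET1 complexes, were lower. Setd1b had 31.4, 24.6 and 30.8 TPM and Setd1a had 15.5, 12.7 and 17.2 TPM in the gene table, where Setd1b was 1.85-fold higher. In the second table Setd1a averaged 29.2 ± 1.902 TPM and Setd1b 26.9 ± 2.54 TPM, so the order turned round. Setd2, the enzyme that trimethylates lysine 36 behind RNA polymerase II, averaged 79.6 ± 2.19 TPM in the gene table, and it cannot be separated from Kmt2c there. In the second table Setd2 was above Kmt2c, at 88.1 ± 5.18 TPM against 73.8 ± 2.76 TPM. On coding transcripts Setd2 was below Kmt2c, at 44.6 ± 2.36 TPM against 61.4 ± 3.79 TPM. Of the catalytic subunits of Polycomb complex PRC2, Ezh1 had 41.4, 27.6 and 40.3 TPM and Ezh2 had 11.6, 12.6 and 13.1 TPM. Ezh1, the form known from resting cells, was 2.75-fold above Ezh2, the form known from dividing cells, and the ranges lay apart.

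Among the demethylases Kdm2a, which acts on lysine 36 and has a CXXC domain that binds CpG islands, had 90.2, 82.8 and 86.9 TPM. Kdm2b, of the same build and part of a Polycomb complex, had 15.0, 13.9 and 15.5 TPM, and Kdm2a was 5.55-fold higher in a ratio that varied little between libraries. Kdm2b overlaps Rnf34 on the opposite strand. Kdm3a, a lysine 9 demethylase, had 68.8, 54.7 and 62.3 TPM. The lysine 4 demethylase Kdm5a had 55.4, 53.1 and 56.1 TPM, and its paralog Kdm5b had 4.84, 5.42 and 6.33 TPM and was the lowest demethylase. Kdm5a was 8.59-fold higher than Kdm5b.

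The lysine 9 and lysine 36 demethylases of the KDM4 family were led by Kdm4a at 36.3, 32.2 and 45.5 TPM. Kdm4c had 34.4, 25.96 and 28.3 TPM, and the range of Kdm4a contains values of Kdm4c. Kdm4b had 9.16, 11.1 and 9.20 TPM, with deposited intervals from 7.29 to 142.6 TPM in replicate 1, 9.78 to 91.6 TPM in replicate 2 and 8.001 to 148.8 TPM in replicate 3, so its level is poorly fixed in all 3 libraries. Kdm1a averaged 29.04 ± 5.83 TPM. Kdm7a, which acts on dimethylated lysine 9 and lysine 27, had 40.04, 28.03 and 29.1 TPM, highest in replicate 1. Kdm6b, the lysine 27 demethylase JMJD3 that is known to be induced by lipopolysaccharide in macrophages, had 11.97, 11.6 and 17.2 TPM, and replicate 3 was the highest. Its locus overlaps the antisense gene Kdm6bos, and reads from any exon bases they share cannot be told apart here.

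Paralogs were compared in 19 pairs, each as the log2 ratio of TPM + 1 within a library. In 18 pairs the same gene was the higher in every library, and Kat2a and Kat2b were the exception. With 3 libraries an exact sign-flip test cannot give a two-sided p below 0.25, so no pair could pass 0.05. In 12 of the pairs the deposited intervals of the paralogs lay apart in all 3 libraries. Some deposited TPM values lie outside their own interval, such as Ehmt2 in replicate 1, at 130.7 TPM with an interval from 113.3 to 128.3 TPM. The intervals are therefore not error bounds around the TPM given here. The order was the same in the gene table, in the second table and on coding transcripts alone for 16 pairs.

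Mean ratios above 2 log2 units were those of Kdm5a to Kdm5b, with 3.27, 3.07 and 2.96 in replicates 1, 2 and 3, of Hdac10 to Hdac11, with 2.78, 3.09 and 2.36, of Hdac1 to Hdac2, with 2.83, 2.23 and 2.37, and of Kdm2a to Kdm2b, with 2.51, 2.49 and 2.41. Which pair was widest turned with the scale, since Hdac10 to Hdac11 averaged 3.76 and Kdm5a to Kdm5b 3.30 with a pseudocount of 0.1, and Hdac11 rests on few reads. The ratios that varied least between libraries were Kmt2a to Kmt2b with an SD of 0.031, Hdac7 to Hdac5 with 0.045 and Kdm2a to Kdm2b with 0.051. For the 3 pairs outside those 16 the order depended on the table. The ratio of Kat2a to Kat2b averaged 0.06 ± 0.45 in the gene table and -1.39 ± 0.46 in the second. For Setd1a to Setd1b the values were -0.89 ± 0.086 and 0.12 ± 0.09, and for Kdm4a to Kdm4c 0.35 ± 0.30 and -0.078 ± 0.22. These pairs have no order that both tables share.

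**Figure D3:**
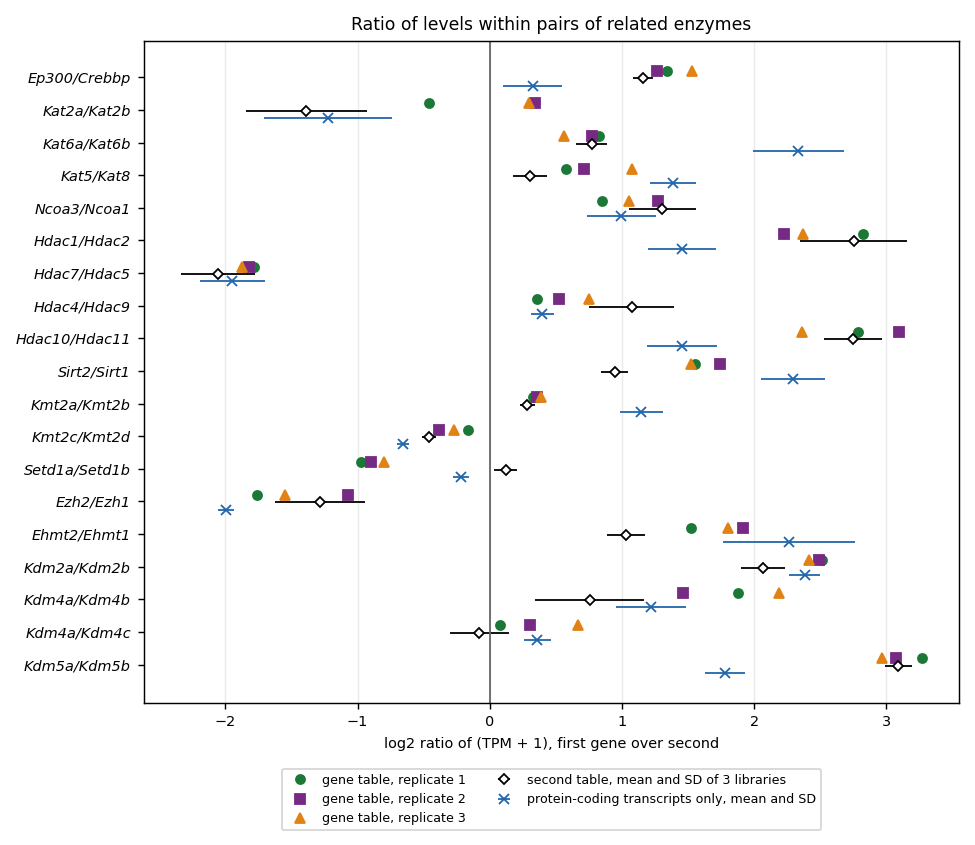
log2 ratio of TPM + 1 within each pair of related enzymes, first gene over second. Coloured symbols are the 3 libraries in the gene table, open diamonds the second table and crosses coding transcripts only (mean and SD, n = 3). Kdm5a over Kdm5b averages 3.10 on this scale and Kat2a to Kat2b spans 0.

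Members were also summed by the residue of histone H3 they act on, methylases first and demethylases second. The KDM4 enzymes were counted for lysine 9 and not for lysine 36, and Kdm7a for lysine 27 and not for lysine 9. These enzymes act on both residues. Kdm2b, of the same build as the lysine 36 demethylase Kdm2a, was counted for lysine 4 and not for lysine 36. The ratios for lysine 4, lysine 9, lysine 27 and lysine 36 therefore depend on these assignments. For lysine 4 the 6 methylases summed to 336 ± 9.86 TPM and the 4 demethylases Kdm1a, Kdm2b, Kdm5a and Kdm5b to 104 ± 7.93 TPM, 3.23-fold in favour of the methylases. That direction held in every library and measure, at 2.78-fold in the second table and 9.77-fold on coding transcripts. For lysine 27, Ezh1 and Ezh2 summed to 48.9 ± 7.48 TPM and Kdm6b and Kdm7a to 45.99 ± 6.202 TPM, a difference within the spread whose direction turned on coding transcripts, where the ratio was 0.613. For lysine 9, Ehmt1, Ehmt2 and Suv39h1 summed to 180.3 ± 2.24 TPM, and Kdm3a, Kdm4a, Kdm4b and Kdm4c to 139 ± 13.4 TPM. The lysine 9 ratio turned in the second table, where it was 0.977. For lysine 36, Setd2 and Kdm2a stood at a ratio of 0.919, and on coding transcripts at 1.31.

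These sums cover the members only and measure RNA, not enzyme activity. Kdm6a, a lysine 27 demethylase outside the set that was picked out after its value was seen, had 77.3, 51.5 and 80.5 TPM, more than Kdm6b and Kdm7a together. Nsd1, a lysine 36 methylase outside the set, averaged 144 ± 10.98 TPM.

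**Figure D4:**
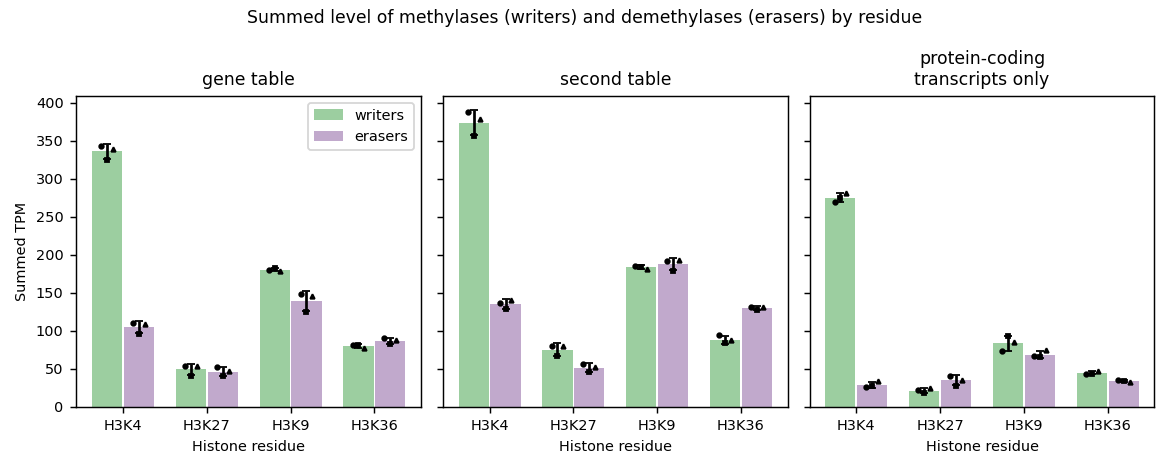
Summed TPM of member methylases (writers, left bars) and demethylases (erasers, right bars) by residue of histone H3, as mean and SD of 3 libraries with single libraries as symbols, in the gene table, the second table and on coding transcripts only. Writers exceed erasers at H3K4 in all panels, 336 to 104 TPM in the gene table, while the other residues change order between panels.

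Over the 3 libraries, the SD of log2 CPM (reads relative to a library total corrected by TMM) had a median of 0.154 for the 49 members that averaged 50 counts or more, against 0.190 for protein-coding genes. The class medians were 0.145 for acetylases, 0.163 for deacetylases, 0.167 for methylases and 0.146 for demethylases. Of the 49, 9 varied by more than 1.5-fold between their highest and lowest library, 18.4%, against 24.1% of protein-coding genes. Without the count minimum the median SD was 0.158 for all 50 members and 0.160 for protein-coding genes, so the difference depends on that filter, and the deacetylases stood at 0.199 there. On log2(TPM + 1) the values were 0.176 for members, 0.242 for deacetylases and 0.230 for protein-coding genes. By log2 CPM, Setd1b, with an SD of 0.014, Ncoa2 with 0.024, Hdac2 with 0.044 and Kdm1a with 0.048 were the steadiest.

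Of the 9 members over 1.5-fold, 7 were highest in replicate 2. Among all protein-coding genes that averaged 50 counts or more, 39.6% were highest there. The share among those over 1.5-fold was not computed, so the 7 cannot be called particular to the members. Hdac10 had log2 CPM of 3.78, 4.70 and 4.22 in replicates 1, 2 and 3, Kdm4b 4.08, 4.93 and 4.49 and Ehmt2 7.65, 8.38 and 7.94. Hdac5 had 5.40, 6.10 and 6.01, Kdm5b 4.35, 4.97 and 4.86, Hdac7 3.97, 4.60 and 4.14 and Kat2a 5.29, 5.90 and 5.46. Each of these was lowest in replicate 1. Kdm6b was lowest in replicate 1 and highest in replicate 3, at 5.26, 5.63 and 6.02, and of the 6 Lipid A response genes Fos had that order too on this scale, at 5.10, 6.40 and 6.84. Hdac1 was highest in replicate 1, at 5.90, 5.28 and 5.50, and its retained-intron transcript Hdac1-206 had 36.1, 8.35 and 19.04 TPM while the coding Hdac1-201 had 19.1, 11.4 and 16.9 TPM. Hdac11, below the count minimum, had the largest SD of all, 0.70.

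Which library stood highest depended on the scale. By log2 CPM 32 of the 49 members were highest in replicate 2, where 39.6% of protein-coding genes were, and 27 were lowest in replicate 1 (background 41.2%). By log2(TPM + 1) 33 were lowest in replicate 2, where 70.7% of protein-coding genes were, while 25 were highest in replicate 1 (background 51.4%), 18 in replicate 3 (background 39.1%) and 6 in replicate 2 (background 9.43%). Over all genes the median log2 difference in TPM was 0.29 between replicates 1 and 2 and -0.26 between replicates 2 and 3. The TPM of each library sums to nearly the same total, 994254, 999080 and 999230, so not every gene can shift this way. Protein-coding genes summed to 338285, 244691 and 299383 TPM in replicates 1, 2 and 3. Relative to their own mean over libraries, the members' median in replicate 2 was -0.14 on the TPM scale, against -0.18 for protein-coding genes, and 0.09 on the CPM scale, against 0.02. Replicate 2 had the least starting RNA, the most reads and the lowest summed TPM of protein-coding genes, and their part in this was not tested.

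**Figure D5:**
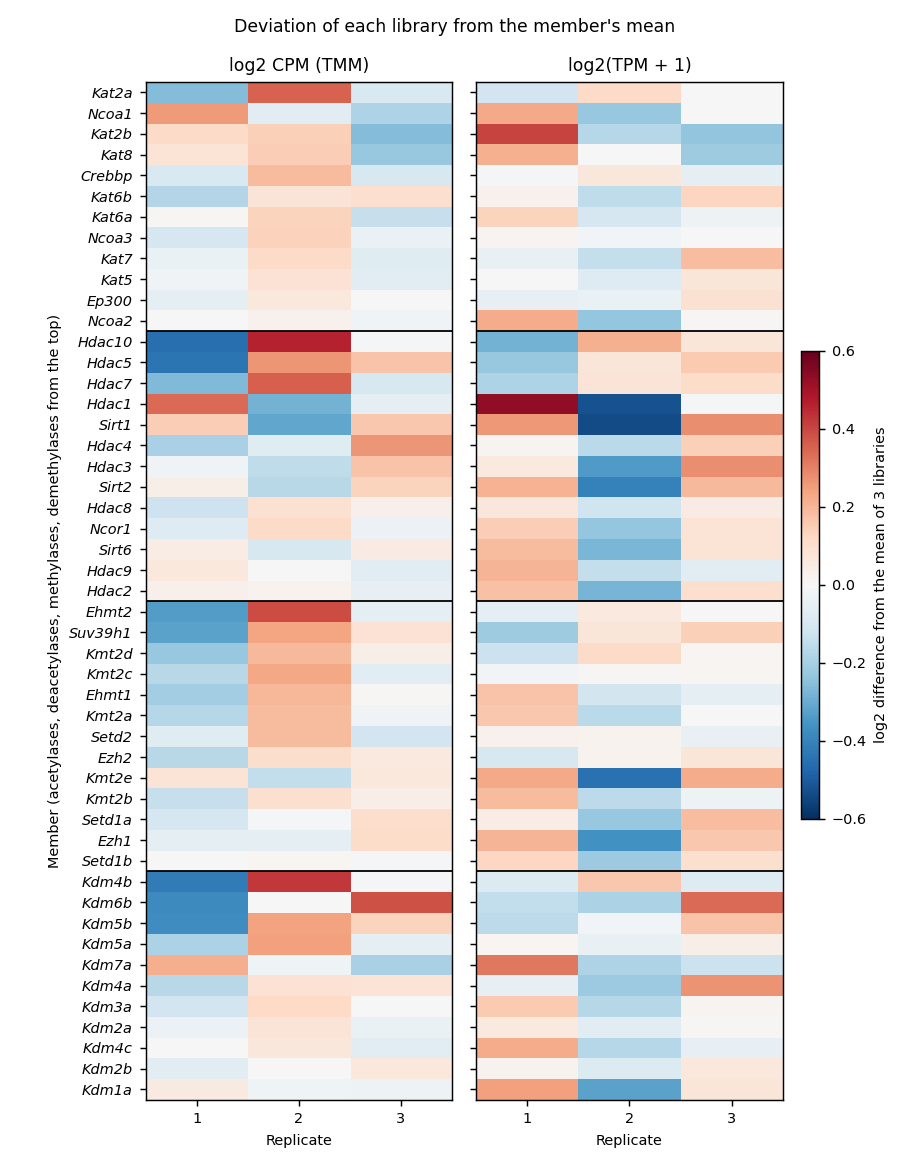
Difference of each library from the member's mean over 3 libraries, in log2 units, for the 49 members that averaged 50 counts or more, by log2 CPM (left) and log2(TPM + 1) (right). Replicate 2 is mostly above the mean on the left (highest for 32 members) and below it on the right (lowest for 33).

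Related genes outside the set were looked at for context. Of 38 other enzymes of the same families 35 stood at 1 TPM or more in every library, with a median of 18.6 TPM, led by the JmjC protein gene Jmjd1c at 187 ± 26.6 TPM, Nsd1, and Nsd3, a lysine 36 methylase, at 143 ± 32.5 TPM. The lowest was Kdm4d, known from testis, at 0.0233 TPM. Of 45 partner subunits of the enzyme complexes 43 reached 1 TPM throughout, with a median of 20.7 TPM. The exceptions were Phf19 of PRC2, with 1.22, 0.93 and 1.67 TPM, and Dpy30 of the lysine 4 complexes, with 2.38, 0.82 and 3.66 TPM, both below 1 TPM in replicate 2 only.

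Partner subunits spanned a wide range of levels. Of the 5 PRC2 partners, Eed averaged 87.2 ± 13.2 TPM, Mtf2 35.8 ± 1.84 TPM, Suz12 25.99 ± 5.86 TPM, Jarid2 19.1 ± 6.31 TPM and Phf19 1.27 ± 0.373 TPM, while the enzymes Ezh1 and Ezh2 averaged 36.4 ± 7.67 TPM and 12.4 ± 0.788 TPM. In SAGA and NuA4, Supt20 averaged 100.4 ± 14.3 TPM and the scaffold Trrap 95.6 ± 13.7 TPM. In the gene table these lay above every acetylase gene except Ep300, which lay within their spread. In the second table Ncoa3 at 121 ± 11.2 TPM and Ep300 at 108 ± 9.67 TPM had higher means than Supt20 at 104.2 ± 14.4 TPM and Trrap at 97.7 ± 7.75 TPM. In the deacetylase complexes the NuRD remodeller Chd4 averaged 84.4 ± 5.15 TPM and Sin3b 36.5 ± 3.43 TPM. In the NCoR complex Gps2 averaged 25.8 ± 5.52 TPM, Tbl1xr1 20.7 ± 5.51 TPM and Tbl1x 12.02 ± 2.08 TPM, all far below Ncor1. Of the lysine 4 complexes, Cxxc1, Ash2l and Rbbp5 averaged 27.4 ± 4.72 TPM, 22.7 ± 1.83 TPM and 20.6 ± 2.903 TPM. The MOZ and HBO1 subunits Brpf1, Ing4 and Brd1 averaged 40.7 ± 3.05 TPM, 40.5 ± 7.13 TPM and 38.04 ± 2.89 TPM.

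The depth behind these values was ample for most members and thin for few. Mean expected counts per member had a median of 1139 and ran from 13.3 for Hdac11 to 21031 for Kmt2d. The deposited interval of TPM spanned more than a factor of 2 in some library for only Kdm4b and Hdac11. A narrow interval does not bound the error of the TPM given here, since some values lie outside their own interval. The transcript level also depended on the table. The second table was higher for 41 of 50 members, with a median ratio of 1.23, against 1.34 for protein-coding genes, and 16 members were over 1.5-fold higher there. Among the 10 highest members of each table, 8 were shared. In all, the spans of 18 members overlap a gene of at least 1 TPM on the opposite strand, among them Kdm1a with Luzp1, Kdm5a with Ccdc77 and Ncor1 with Ttc19. For the overlaps, the wide intervals and the 1.5-fold count, the shares over all protein-coding genes were not computed. These counts describe the members only.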

How the data were processed

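Total RNA of the chromatin fraction was sequenced by the submitters in 3 libraries of 1 group. Per the file headers, the authors' gene table and first transcript table hold expected counts, TPM and FPKM, the gene table also the bounds of an interval of TPM whose level is not stated, and the first transcript table the percent of a gene's TPM on each transcript. Per the file headers, estimated counts and TPM make up the authors' second transcript table. Genome mm10 and annotation M21 come from the notes deposited with each library. The aligner, counting program and strand were not given in the sources used here. Genes were named through GENCODE M21. Entries that name no gene held 2.46, 0.484 and 0.327% of counts and stayed out of library sizes.

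Levels are the deposited TPM, with a pseudocount of 1 where logs were taken. The transcripts of the second table were summed by gene. Shares by transcript class were computed from TPM of the 2 transcript tables, and "coding transcripts only" is the sum of TPM over protein-coding transcripts, an alternative added after the data had been seen. Expected counts were rounded and turned into log2 CPM with TMM factors (1.03, 0.984 and 0.985) and a prior count of 2 in edgeR 4.0.16, with DESeq2 1.42.0 size factors as an alternative, in R 4.3.3, and measures of variation used genes that averaged 50 counts or more. Python 3.11.15, pandas 2.3.3, numpy 2.4.6 and matplotlib 3.10.9 were used. The scaling to log2 CPM and the SD over libraries were tested on simulated counts. TPM levels, transcript shares, paralog ratios and sums by residue were not tested in that way. Because there is 1 group, no test between groups and no p-value was computed.

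The members and all gene lists were chosen with earlier results of these data known. All 50 members could be named with their mean. Values in every library are given for the 3 highest and the lowest of each class, the 10 most variable, both genes of each pair and the members whose order or leading transcript differs between tables, and the 3 highest and the lowest of the other lists could be named. Kdm6a, Jarid2, the markers above 1 TPM in the second table and the library values of members outside these sets were chosen after their values were seen. Promoter sequences and protein sequences were not used here. A count of 0 allows up to 3 counts, 0.220, 0.124 and 0.182 CPM in replicates 1, 2 and 3, and this floor covers counting error only. Deposited intervals cover at most counting error, and some deposited TPM values lie outside their own interval.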

Additional observations from a re-analysis of the deposited data

How the results depend on the processing

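The count of members at 1 TPM or more kept within 1.5 times of its value under every alternative, and no class median changed its side of the protein-coding median. The distances, 4.18, 4.15, 2.99, 4.93 and 4.20 log2 units for all members, acetylases, deacetylases, methylases and demethylases, did move: to 5.33, 5.29, 4.07, 6.09 and 5.34 with a pseudocount of 0.1, 1.37, 1.32, 0.26, 2.10 and 1.37 among genes that averaged 1 TPM or more, 5.04, 5.43, 3.55, 6.68 and 5.34 on CPM, 3.56, 3.66, 2.47, 4.29 and 3.44 in the second table and 3.50, 3.53, 2.30, 4.27 and 3.36 on coding transcripts, an alternative added after the data had been seen. By FPKM the acetylases stood at 4.08. Leaving out 1 replicate gave 2.94 to 3.10 for the deacetylases.

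Median SDs of log2 CPM held within 1.5 times under other scalings and filters, but without 1 replicate ran over 0.0739 to 0.129 for acetylases, 0.108 to 0.158 for deacetylases and 0.0864 to 0.17 for demethylases. The counts of members highest in replicates 1, 2 and 3 were 7, 32 and 10 by CPM and 25, 6 and 18 by TPM, and of members lowest 27, 6 and 16 by CPM and 12, 33 and 4 by TPM. In the second table the median retained-intron shares were 40.4, 37.4, 48.6, 30.7 and 42.02% and the coding shares 41.6, 37.2, 37.97, 49.9 and 42.1% in the same order of classes. Without 1 replicate the retained-intron share ran over 36.3 to 38.7% for all members and 16.5 to 19.4% for acetylases, and the coding share over 59.0 to 62.1% for acetylases and 53.4 to 57.3% for methylases.

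Of the paralog ratios, Kat2a to Kat2b changed sign at -1.39 in the second table, -0.32 on CPM, -1.22 on coding transcripts and over -0.082 to 0.32 without 1 replicate, and in the second table Setd1a to Setd1b was 0.12 and Kdm4a to Kdm4c -0.078. The log2 ratio of methylases to demethylases was 1.69 for lysine 4, 1.47 in the second table and 3.29 on coding transcripts. The same values were 0.084, 0.55 and -0.71 for lysine 27 and -0.12, -0.56 and 0.39 for lysine 36, and for lysine 9 0.38 and -0.033 in the second table. The cause of these changes was not tested. No paired analysis was possible because the study has 1 group and replicate numbers could pair no samples across groups.

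The main limits are 3 libraries of 1 group with 1 donor entry, a starting amount that differs with the replicate, and levels that depend on how reads are shared among overlapping transcripts of a gene.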
